A study of Rattus norvegicus with 8 samples.

Results

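Kit and Kitlg encode a receptor and its ligand, and both were measured in rat ovary with or without pregnant mare serum gonadotropin (PMSG), a serum hormone that acts mainly like follicle-stimulating hormone. They are 2 of 26214 gene names on the array, and all non-control probes that carry these names were taken, which gave 4 of 30367: 1 for Kit and 3 for Kitlg. Immature female rats aged 26 days received 50 IU of PMSG under the skin, dissolved in 0.2 ml of phosphate buffer with albumin, and control rats received the buffer alone. All ovaries were removed 48 h later, at 28 days of age, and each of 8 RNA samples (4 labelled control, 4 labelled PMSG) was hybridised to 1 single-colour array. The strain, and whether a sample came from 1 animal or from a pool, are not given in the sources used here, so the p-values measure the spread between these samples.

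Kit is a receptor tyrosine kinase of the platelet-derived growth factor receptor family (class III). Its ligand, also called stem cell factor, is made by granulosa cells of the follicle, while the receptor sits on oocytes and on theca and interstitial cells. Binding of the ligand pairs receptors, which then signal through adaptors to RAS and MAP kinases, to PI3K and AKT, and to SRC and STAT proteins. In the ovary this exchange is known for starting the growth of dormant oocytes and for recruiting theca cells. Mast cells and melanocytes carry the same receptor.

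The arrays were alike in brightness, with a 75th percentile of signal between 768.9 and 1103.1. Probes well above background made up 80.8% to 84.6% of the total. Correlations across the tested probes were at least 0.977 between arrays of the same label and at most 0.972 between labels. Markers of the tissue were present: 9 of 10 granulosa cell genes and all 7 theca and interstitial genes with a probe were tested. The exception was the aromatase gene Cyp19a1, whose 1 probe was above background on 0 arrays. That probe was matched through its transcript, not its gene name on the array, and whether it reports the gene was not tested. Some hormone-responsive genes ran against what is generally known of gonadotropin treatment. Lhcgr, the luteinising hormone receptor gene, was lower in arrays labelled PMSG by a log2 difference of -1.93, and Amh, the gene of anti-Mullerian hormone, was higher by 3.03 (limma adjusted p = 0.00114 and 2.61e-04). Of all 9 granulosa cell genes tested, 4 were called lower and 1 (Amh) higher (44.4% and 11.1%, beside 16.6% and 17.6% of all tested probes). Those lower were Nr5a2 (-1.47), Inhba (-1.32), Fst (-1.05) and Inhbb (-0.57). Inhba held in 4 of 8 fits that left out an array and Inhbb in 1 of 8. With replicate number as a block in the fit, 2 granulosa cell genes were lower. Directions below, that of Kit included, therefore follow the labels and compare arrays labelled PMSG with those labelled control.

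Kitlg is spliced into a pair of transcript variants. Variant 1 keeps an exon that encodes the main cleavage site at which the ligand is cut from the cell surface and released, and variant 2 lacks that exon and gives a ligand that stays mostly on the membrane. The array files assign the probe that starts at transcript position 709 to variant 1 alone, and the probes at 895 and 5079 to both variants. The probes at 709 and 895 lie in the coding sequence and are shown because the first is the one that tells the variants apart. Capitals mark the probe assigned to variant 1 alone.
Kitlg probe at 709: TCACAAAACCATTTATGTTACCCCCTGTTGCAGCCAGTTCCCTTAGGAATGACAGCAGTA
Kitlg probe at 895: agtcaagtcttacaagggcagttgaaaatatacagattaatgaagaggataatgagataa
Their starts are 186 bases apart in the transcript and 6270 bases apart in the genome, so at least 1 intron separates them. In the rn4 build they lie on the plus strand of chromosome 7, from 37776944 to 37777003 and from 37783214 to 37783273. The third Kitlg probe (chromosome 7, 37795442 to 37795501, plus strand) and the Kit probe (chromosome 14, 34906043 to 34906102, minus strand) lie behind the coding sequence, starting at transcript positions 5079 and 3756. Each array carried 2 spots of each probe except the one at 895, which had 1. RNA was copied from an oligo-dT primer at the end of the transcript, and the levels of different probes are not compared with each other.

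The receptor gene Kit was higher in arrays labelled PMSG. Its level, as log2 signal minus the array's 75th percentile, was -3.64, -3.78, -3.45 and -3.89 on control arrays 1 to 4. On PMSG arrays 1 to 4 it was -2.62, -2.41, -2.94 and -3.21. The groups did not overlap, and the lowest array labelled PMSG, number 4, stood above the highest control array. The means were -3.69 ± 0.19 (SD, n = 4) and -2.80 ± 0.35 (SD, n = 4). The log2 difference was 0.89 (SE 0.19, 95% confidence interval 0.46 to 1.32; limma adjusted p = 0.00732), a fold of 1.86. Of the 25303 probes tested, 17.6% were higher at this threshold, 36.6% had groups that did not overlap (17.9% with PMSG higher), and 17.1% had a larger absolute difference than Kit. Over all tested probes the median log2 difference was 0.11, which quantile normalization brought to 0.03, and under that normalization Kit still rose, by 0.73 (limma adjusted p = 0.0137).

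The Kit probe was well above background on all 8 arrays, with unscaled signals from 74.7 to 91.5 in control and from 100.2 to 193.3 in PMSG. Its 2 spots on an array differed by a median of 0.32 (log2), and by 0.62 at most, on control array 1. In a whole ovary, a change in the number of cells that carry a transcript cannot be told apart from a change in transcript per cell. Kit kept its call in each fit that left out 1 array, with log2 differences from 0.77 to 1.03. Arrays in the first row of the slide gave 1.16 and those in the second row 0.63, with 2 arrays of each label per row; the second row alone missed the threshold (limma adjusted p = 0.0478 and 0.273), as did every other probe in that row.

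**Figure D1:**
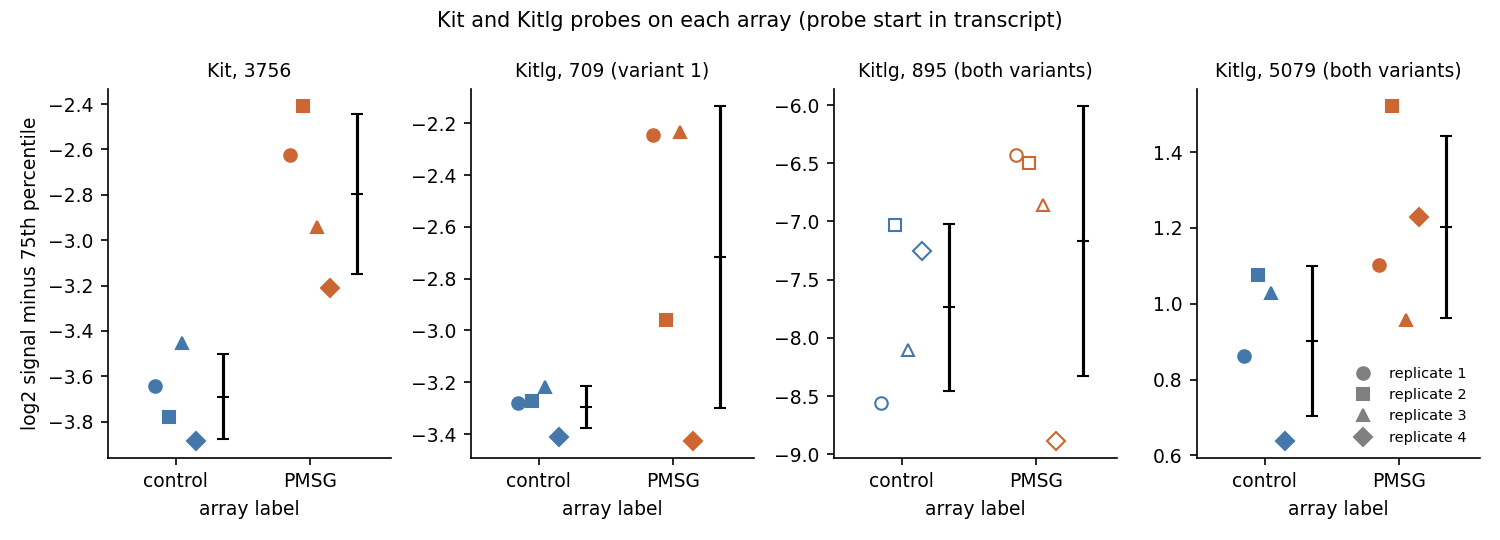
Levels of the Kit and Kitlg probes on each array, as log2 signal minus the array's 75th percentile, with the label of the array on the x axis, a symbol for each replicate and black bars for mean ± SD (n = 4). Open symbols mark the probe that was not above background on any array; for Kit the 4 arrays labelled PMSG lie above all 4 control arrays, and for the Kitlg probes the groups overlap.

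The ligand gene Kitlg did not pass the threshold with either probe that could be tested. The probe at 5079, which covers both variants and was bright, stood at 0.86, 1.07, 1.03 and 0.64 on control arrays 1 to 4, and at 1.10, 1.52, 0.96 and 1.23 on PMSG arrays 1 to 4. PMSG array 3 lay within the control range, below control arrays 2 and 3, and the other PMSG arrays lay above all controls. The log2 difference was 0.30 (SE 0.15, 95% confidence interval -0.05 to 0.65; limma adjusted p = 0.161). The interval reaches from a small decrease to a fold of 1.57, so a change of that size is neither shown nor set aside.

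The variant 1 probe, which reports the form of the ligand that can be released, stood at -3.28, -3.27, -3.22 and -3.41 on control arrays 1 to 4. On PMSG arrays 1 to 4 it stood at -2.24, -2.96, -2.23 and -3.43. PMSG arrays 1, 2 and 3 lay above every control array, and PMSG array 4 lay below every one. Means were -3.30 ± 0.08 (SD, n = 4) in control and -2.72 ± 0.58 (SD, n = 4) in PMSG. The log2 difference was 0.58 (SE 0.26, 95% confidence interval -0.03 to 1.18; limma adjusted p = 0.124). Without PMSG array 4 the difference was 0.82 and passed (limma adjusted p = 0.0127), as it did at 0.74 with arrays weighted by their deviations (0.0185), where that array had the lowest weight, 0.279. Over its 21 alternatives the limma adjusted p ran from 0.0127 to 0.651, and these were the 2 that passed.

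The third Kitlg probe, at 895, was well above background on 0 of 8 arrays and was not tested. Its unscaled signal lay between 2.76 and 8.08 on control arrays and between 2.29 and 11.4 on PMSG arrays. These values carry no order, and nothing on the shared end of the coding sequence can be read from them.

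Whether the variant 1 probe and the late Kitlg probe changed unequally was tested on their difference within each array. This difference was -4.14, -4.35, -4.25 and -4.05 on control arrays and -3.35, -4.48, -3.19 and -4.66 on PMSG arrays 1 to 4. It was wider apart among PMSG arrays, where arrays 1 and 3 lay above all controls and arrays 2 and 4 below. The mean change of 0.28 lay within the spread of the arrays (exact permutation test, two-sided, over 1 pair of probes, p = 0.457, where 0.0286 is the smallest p possible). No change in the balance of these probes was detected.

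Signalling genes behind the receptor moved in both directions. Of 86 genes listed for the pathway and for the related receptor family, 84 were tested, and 13 were higher and 22 lower past the threshold. That is 41.7% of the listed genes, beside 34.2% of all 25303 tested probes, with 17.6% of all probes higher and 16.6% lower. The median log2 difference of the list was -0.10. With normexp background correction it was 0.02, and with median centring the split was 5 higher and 26 lower. Without control array 4 or PMSG array 1 the number of passing genes fell from 35 to 22 and 23.

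The processing of the ligand is represented by the proteases Adam17 and Mmp9, which can cut Kitlg from the cell surface. Neither passed, with log2 differences of -0.02 and -0.43 (limma adjusted p = 0.946 and 0.0914). At an unadjusted limma p under 0.05, 1 of the 2 did, and under quantile normalization or median centring 1 was called lower. With normexp background correction neither was called, and the median log2 difference of the pair was 0.03. Mmp9 was near background, above it on 4 control arrays and 1 array labelled PMSG, with unscaled signals from 8.17 to 16.2.

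Among 13 adaptors, which dock on the active receptor, 3 were higher and 2 lower (23.1% and 15.4%, beside 17.6% and 16.6% of all tested probes). Grb7, an adaptor with an SH2 domain, rose by 2.26 (SE 0.19, limma adjusted p = 1.67e-04), from -1.93 ± 0.36 (SD, n = 4) to 0.33 ± 0.20 (SD, n = 4). Grb2, which links receptors to the RAS activator SOS, was lower by a log2 difference of -0.71 with no overlap between groups, and another probe of it gave -0.29. Gab1, a scaffold for PI3K, was higher by 0.66 (limma adjusted p = 0.0448), and Sos2 by 0.37 (0.0469). Another Sos2 probe gave -0.16, so the direction of Sos2 depends on the probe. Each of these last calls held in 1 of 8 fits that left out an array. The brake Sh2b3 was lower by a log2 difference of -0.41 and held in 6 of 8.

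In the RAS and MAP kinase group 6 of 16 genes were lower (37.5%, beside 16.6% of all tested probes) and 0 higher (beside 17.6%). An unadjusted limma p under 0.05 was found for 8 of 16, and for 11475 of all 25303 tested probes. Map2k1, the kinase that activates the ERK kinases, fell from 0.40 ± 0.07 (SD, n = 4) to -0.56 ± 0.21 (SD, n = 4). The difference was -0.97 (log2, SE 0.12, limma adjusted p = 7.44e-04). The small GTPase gene Nras differed by -0.90, also without overlap between groups. Mapk3, a gene of an ERK kinase, differed by 0.13 and did not pass.

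Of 18 genes of PI3K, AKT and their targets, 7 were lower and 3 higher (38.9% and 16.7%, beside 16.6% and 17.6% of all tested probes). Akt2, a kinase below PI3K, differed by -0.99 on the log2 scale (SE 0.11, limma adjusted p = 4.62e-04). The cell cycle inhibitor Cdkn1b and the growth kinase Mtor differed by -0.74 and -0.67. The genes higher in arrays labelled PMSG were Pik3r2 (0.56), Pik3ca (0.52) and Rps6 (0.34). All 3 lost the call with median centring, and other Pik3ca probes ran from -0.45 to 0.09, so its direction depends on the probe. Foxo3, which holds oocytes dormant when PI3K is quiet, differed by 0.28 and did not pass (limma adjusted p = 0.139).

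The SRC, JAK, STAT and phospholipase C group had 2 of 11 genes lower (18.2%, beside 16.6% of all tested probes) and 1 higher (9.1%, beside 17.6%). Stat5b, a transcription factor activated by cytokine and hormone receptors, differed by -1.37 on the log2 scale (SE 0.15, limma adjusted p = 3.85e-04). The kinase genes Src and Fyn differed by 0.47 and -0.38, and Fyn kept its call in 5 of 8 fits that left out an array. Of 6 tested phosphatases and ubiquitin ligases, most of which switch the receptor off or remove it, 1 was higher and 2 lower. These are 16.7% and 33.3%, beside 17.6% and 16.6% of all tested probes. Ptpru was higher by 0.41, while Cbl and Cblb differed by -0.44 and -0.47. Cblb held in 1 of 8 such fits, Cbl missed the threshold after normexp background correction, and Ptpru with median centring.

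Transcription factors known to act on Kit in germ, mast or blood cells gave 4 higher and 1 lower of 8. These are 50% and 12.5%, beside 17.6% and 16.6% of all tested probes. Lhx8, Sohlh2 and Sohlh1, all of which are oocyte factors, were higher by 2.17, 1.58 and 1.15. Lhx8 stood at -1.34 ± 0.29 (SD, n = 4) in control and 0.83 ± 0.19 (SD, n = 4) in PMSG (limma adjusted p = 1.14e-04). Sohlh2 held in 3 of 8 fits that left out an array. It was near background on control arrays 2 and 4, at -6.72 and -6.79, and its difference ran from 0.54 to 2.55 over the alternatives. Mitf, which drives Kit in mast cells and melanocytes, was higher by 0.41 and held in 2 of 8. The blood cell factor Lmo2 was lower by a log2 difference of -1.16, and Gata2, Gata1 and Tal1 did not pass, at 0.09, -0.29 and 0.15.

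**Figure D2:**
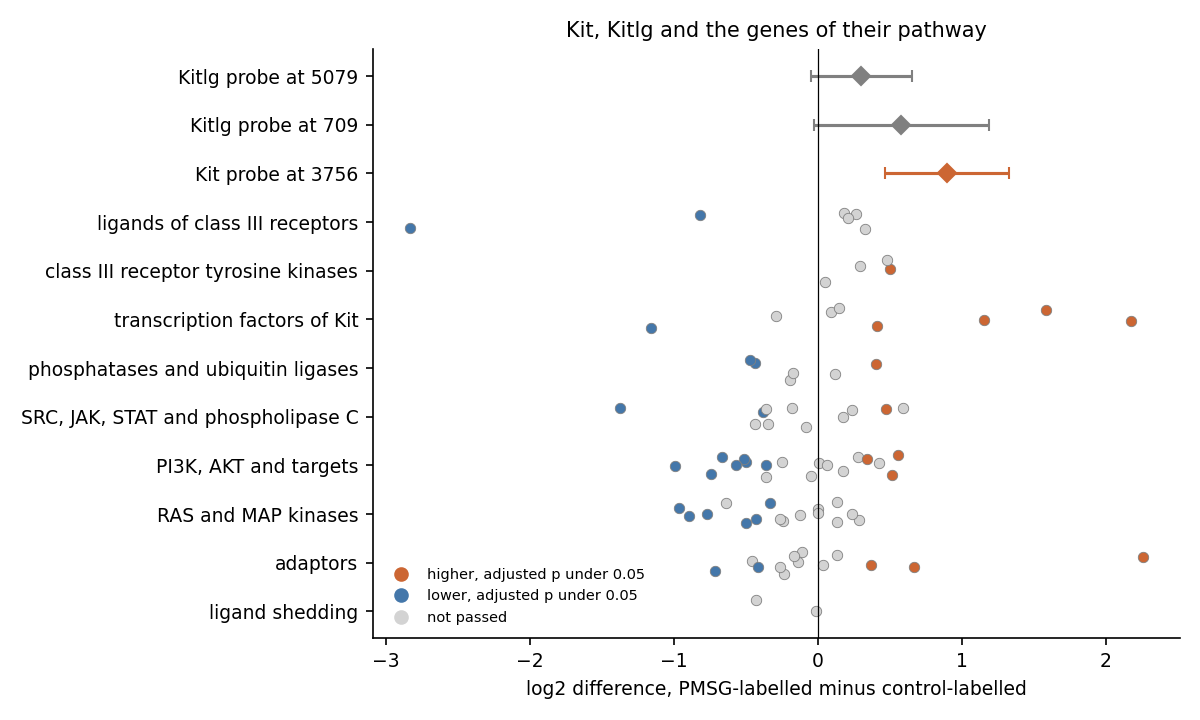
Log2 differences between arrays labelled PMSG and control (x axis) for the tested probes of Kit and Kitlg, with bars for the 95% confidence interval, and for each listed gene in its role group (1 point per gene, orange higher, blue lower, grey not past a limma adjusted p of 0.05). Kit lies at 0.89, Kitlg at 0.58 and 0.30, and the 6 called genes of the RAS and MAP kinase group all lie below 0.

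The closest relatives of Kit are the other class III receptors. Pdgfra, a receptor found on stromal and theca cells, rose by 0.50 (SE 0.11, limma adjusted p = 0.0111), but it missed the threshold with median centring (0.33, adjusted p = 0.185). Flt3 differed by 0.48 (0.0502), Csf1r, the macrophage receptor, by 0.29 (0.143), and Pdgfrb by 0.05 (0.783). Flt3 passed without PMSG array 4, at 0.62, and its dimmer probe differed by 1.71. Whether Kit differed from these relatives in its change was not tested.

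Ligands of this receptor family went different ways. Pdgfd fell from -1.84 ± 0.11 (SD, n = 4) to -4.67 ± 0.18 (SD, n = 4). The difference was -2.84 (log2, SE 0.12, limma adjusted p = 1.38e-05). Csf1, the macrophage growth factor, was lower by a log2 difference of -0.82. Pdgfa, Pdgfb, Pdgfc and Il34 did not pass, with log2 differences of 0.26, 0.18, 0.21 and 0.32, although Pdgfa passed in 4 alternatives, among them without PMSG array 3 (0.31, limma adjusted p = 0.0339; over its alternatives the lowest was 0.0192 and the highest 0.661). Flt3lg was not analysed here.

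Oocyte and mast cell markers were higher in arrays labelled PMSG, as Kit was, and so were the 2 of 5 melanocyte genes that could be tested. Theca and interstitial genes were mixed, with a median log2 difference of 0.54, and blood progenitor genes did not pass. All 13 oocyte genes tested were called higher, beside 17.6% of all tested probes. Their median log2 difference was 1.94, led by H1foo (2.22), Zar1 (2.18) and Zp2 (2.17), an oocyte histone, a maternal factor and an egg coat protein. Their mean level ran from -3.00 to -2.15 in control and from -1.10 to -0.40 in PMSG. Their summed signal, in percent of each array's 75th percentile, was 385.2 to 684.1 in control and 1403 to 2777 in PMSG. Each gene was above background on at least 7 of 8 arrays, and quantile normalization left 12 of 13 called.

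Of 8 mast cell genes tested, 7 were called higher (87.5%) and 0 lower, beside 17.6% and 16.6% of all tested probes. Their median log2 difference was 0.84. Hdc, which makes histamine, rose by 1.37 (SE 0.17, limma adjusted p = 7.12e-04), and the protease genes Cma1 and Tpsab1 rose by 1.35 and 1.24. The gene that did not pass was the factor Gata2. The summed signal of the list was 62.3 to 99.6 in control and 138.9 to 189.3 in PMSG. Among defining genes, Cpa3 was above background on all 8 arrays, Ms4a2 on 2 arrays labelled PMSG and Mcpt1 on 1 control array. Quantile normalization, median centring and normexp correction each left 6 of 8 higher, as did leaving out PMSG array 4.

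Theca and interstitial genes gave 3 of 7 higher and 1 lower (42.9% and 14.3%), beside 17.6% and 16.6% of all tested probes. Insl3, a hormone of theca cells, and Gli1, a target of hedgehog signals to theca cells, were higher by 2.60 and 0.87, and Lhcgr was lower. Their summed signal was 3322 to 4192 in control and 2511 to 5053 in PMSG, so the groups overlapped. Most of this sum came from Cyp17a1, the brightest gene of the list, with means of 5.05 in control and 4.83 in PMSG. Cyp17a1 differed by -0.22 and did not pass (limma adjusted p = 0.483). Granulosa cell genes, which mark the source of the ligand, gave 1 of 9 higher (Amh) and 4 lower. These are 11.1% and 44.4%, beside the same 17.6% and 16.6%. Among the lower were Nr5a2 (-1.47) and Inhba (-1.32, held in 4 of 8 fits that left out an array). The summed signals below are for all granulosa cell genes with a probe. They ran from 16184 to 28264 in control and from 14400 to 17704 in PMSG, and overlapped.

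Of the melanocyte genes, Tyr, Tyrp1 and Mlana were above background on 0 arrays, while Dct and Pmel were higher by 1.87 and 0.54. Pmel missed the threshold under quantile normalization and median centring. Dct was near background on control arrays, at -6.84 to -6.06, and with normexp background correction its difference was 0.57. The summed signal of the melanocyte list was 7.83 to 9.88 in control and 13.9 to 16.8 in PMSG. Of 3 blood progenitor genes tested, limma called 0, and 1 had an unadjusted p under 0.05; quantile normalization or median centring called 1 lower. Cd34 differed by -0.61, Gata1 by -0.29 and Tal1 by 0.15, and Gfi1b was above background on 0 arrays. The summed signal of that list was 37.3 to 49.6 in control and 27.1 to 47.6 in PMSG. The part of the oocyte, mast cell, theca or melanocyte markers in the Kit difference was not tested.

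**Figure D3:**
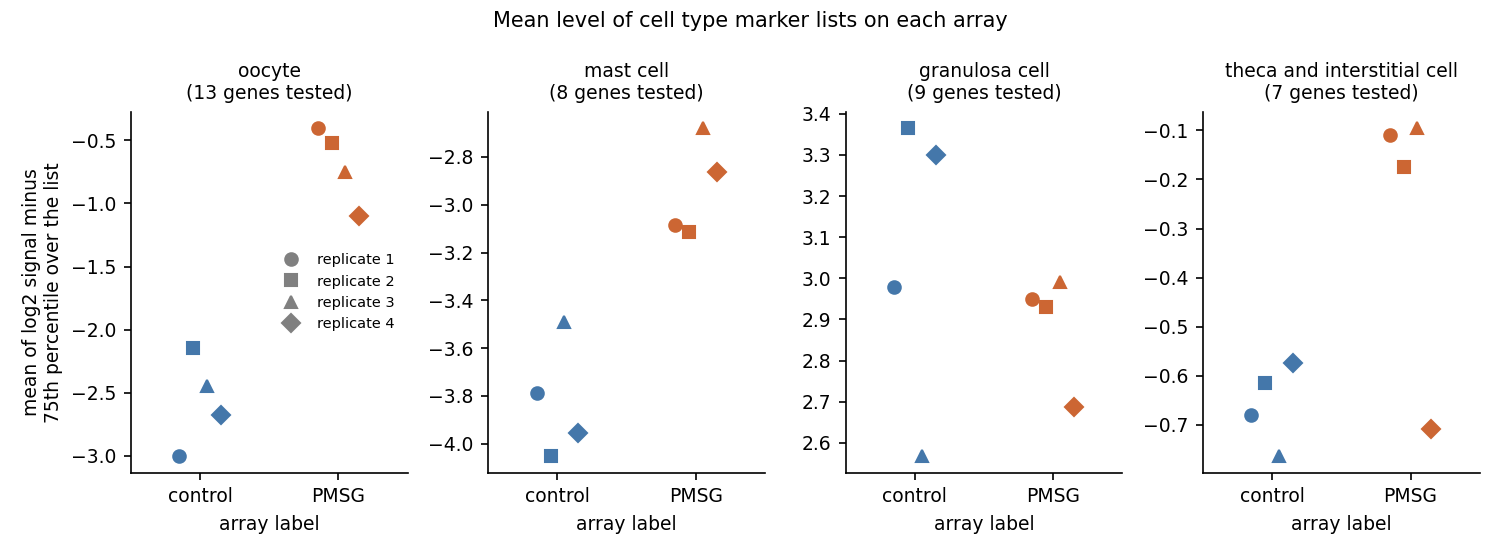
Mean of log2 signal minus the array's 75th percentile over the tested genes of 4 cell type marker lists, on each array, with the label of the array on the x axis and a symbol for each replicate. Oocyte and mast cell genes lie higher on all 4 arrays labelled PMSG, whereas for granulosa cell genes, and through PMSG array 4 for theca and interstitial genes, the groups overlap.

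Genes whose levels over the 8 arrays were most like those of Kit were taken from 13775 named genes above background on all arrays. Among them were Bnc1, a zinc finger factor of germ cells and epithelia (Pearson r = 0.983), the DNA repair gene Xpa (0.982), the fructokinase gene Khk (0.978) and Rnf39 (0.977). After the group means were removed, their r with Kit ran from 0.902 to 0.939, which describes genes chosen for a high r over the same arrays. Bnc1 rose by 0.96, Rnf39 by 0.90, Xpa by 0.71 and Khk by 0.39, all past the threshold, but Khk missed it without control array 2 or 4 (limma adjusted p = 0.0529 and 0.0547).

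For Kitlg, measured with the probe at 5079, the most alike genes were Sertad3 (r = 0.968), Duxbl1 (0.961), Ndrg1 (0.940), Fpgs (0.936) and Msl1 (0.927). Like Kitlg, none of these 5 passed, with log2 differences from 0.15 to 0.56; Duxbl1 passed after normexp correction and without PMSG array 3 (0.72, limma adjusted p = 0.0378, its lowest; the highest was 0.483). Their r with group means removed was 0.879 to 0.971. These correlations describe 8 arrays that share their scaling, over many candidate genes, and carry no test.

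**Figure D4:**
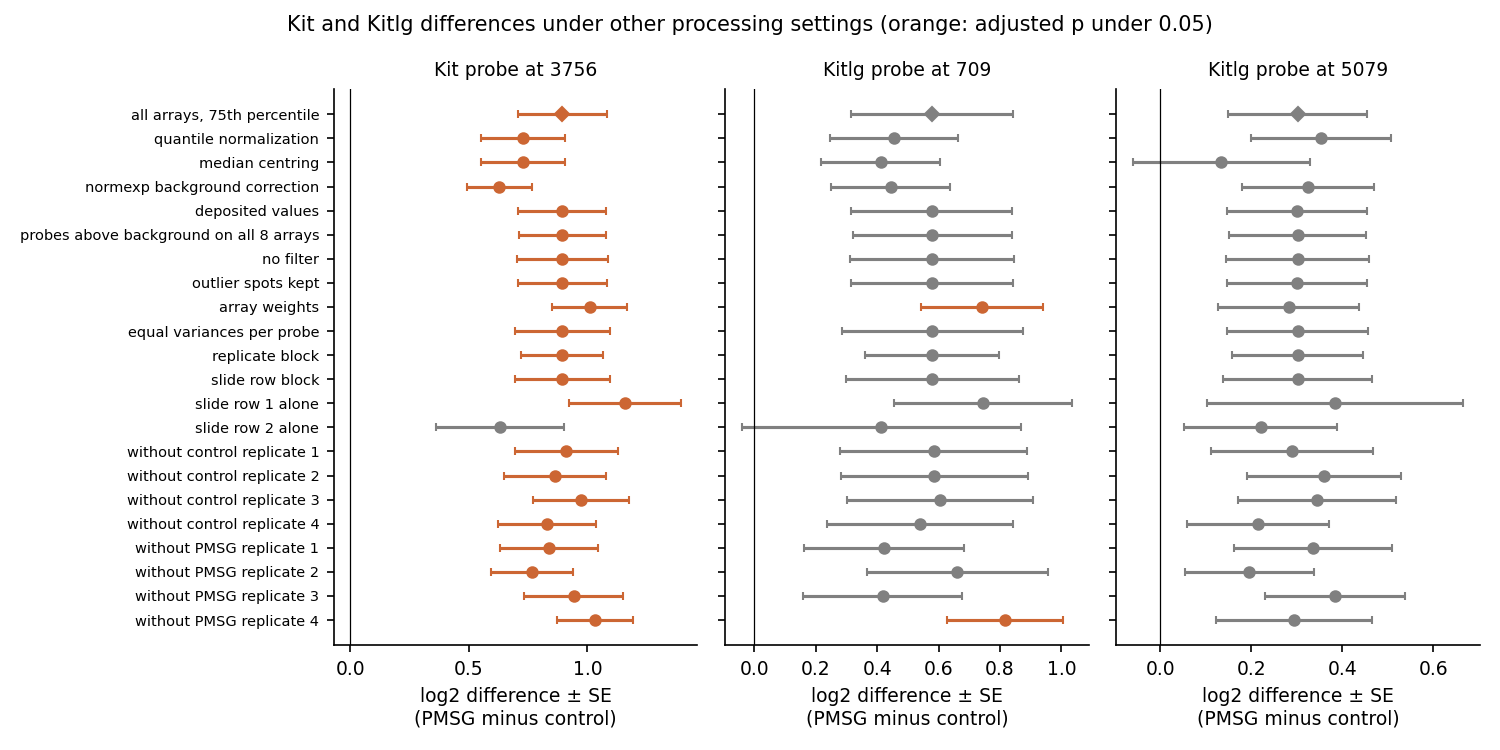
Log2 difference ± SE (x axis) of the tested Kit and Kitlg probes with all arrays and under each of 21 other settings (y axis), orange where the limma adjusted p was under 0.05. Kit passed in all but the second slide row alone, the variant 1 Kitlg probe at 709 passed with array weights and without PMSG replicate 4, and the Kitlg probe at 5079 passed in none.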

How the data were processed

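Per the file headers, the authors extracted spot intensity with Agilent Feature Extraction 11.5.1.1, with detrending and surrogate values for spots not above background; all 8 arrays were on 1 slide and scanned at 1 date. A deposited value table from the authors is on the log2 scale. Set against the scanner files, it holds signals scaled to the 75th percentile of their array, with medians from -3.21 to -2.82 and without centring of probes; each column correlated best with its own array. Columns not used numbered 0.

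Spots called outliers and control spots were left out, log2 processed signals were averaged per probe, and each array's 75th percentile was subtracted. Of 30350 usable probes, 25303 were well above background on at least 4 of 8 arrays (in at least 0.5 of their spots) and were tested in R 4.3.3 by a moderated linear model without covariates (limma 3.58.1, lmFit, eBayes). P-values were adjusted by Benjamini-Hochberg over these probes, at a threshold of 0.05. No spot was saturated. The procedure was checked on simulated data. The number of arrays limits the precision.

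The members and lists were chosen with earlier results of these data known. A listed gene is represented by its brightest probe. Named are all member probes, the 3 largest called differences in each role group, all genes of the receptor family lists, the 3 largest differences in each marker list and the 5 genes most like each member; other names complete small counts or pairs and were chosen after their values were seen. Some genes that these rules name are not reported here. Alternatives covered scaling, background, filter, weights, slide row, replicate block and single arrays left out.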

Additional observations from a re-analysis of the deposited data

Results flagged for a closer look

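In 5 of 120 groups of 4 values examined, 1 array lay far from the others, where chance flags about 1 in 20 groups, here 6. In arrays labelled PMSG, array 4 stood apart for Gab1, at -4.50 against -3.61 to -3.54 (gap 0.936 of the range), for Gli1, at -1.27 against -1.72 to -1.70 (gap 0.955), and for Insl3, at 2.49 against 3.50 to 3.59 (gap 0.921). In control arrays, array 4 stood apart for Lmo2, at -0.73 against -1.27 to -1.23 (gap 0.931), and array 1 for Pdgfrb, at 1.25 against 1.48 to 1.51 (gap 0.917). None of the Kit or Kitlg probes was among them.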

How the results depend on the processing

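Over 21 alternatives Kit ran from 0.63 to 1.16 and lost its call in the second slide row alone (0.63, limma adjusted p = 0.273). Leaving out single arrays gave 0.77 to 1.03 for Kit, for the Kitlg variant 1 probe 0.42 to 0.82 and for the late Kitlg probe 0.20 to 0.38. The variant 1 probe passed with array weights (0.74) and without PMSG array 4 (0.82); the cause was not tested. The difference between these Kitlg probes lay between 0.03 and 0.52 without single arrays, and passed under no alternative run.

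Passing pathway and family genes numbered 35, and 22 to 35 when 1 array was left out; all tested probes that passed numbered 8658, and 6552 to 11382. The slide rows alone, with 4 arrays each, gave 11 and 0 pathway genes and 3351 and 0 probes; in the second row 24 pathway genes and 6015 probes had an unadjusted limma p under 0.05. With the replicate block, Kit was called at 0.89 (limma adjusted p = 0.0192), 24 pathway genes and 7346 probes passed. Deviations of same-numbered arrays correlated at 0.0444, 0.0361, 0.183 and -0.0192. Differently numbered arrays were not compared in this way, so whether the numbers pair the arrays is not decided. Among single named genes, 101 alternative values lost a call and 13 gained one, and no called direction turned.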
